A study of Mus musculus with 18 samples.

Results

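The expression of 34 genes that mark astrocytes was followed in the lateral septum (LS) of maternal, pups removed and virgin mice. The genes were given as a list of symbols, and each was read from the array target (probeset) that the platform annotation assigns to that gene alone, taking the brightest where a gene had more than 1. All 34 had such a target, out of 19938 genes with a target of their own and 35557 targets on the array. The list mixes markers used to identify astrocytes with genes of their transport, metabolic and secretory functions.

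RNA came from microdissected LS of outbred hsd:ICR female mice about 70 days old, with 1 array per mouse and 6 mice in each group. Maternal mice were lactating with a litter set to 11 pups at birth. Pups removed mice had given birth to litters treated alike and lost their pups on postpartum Day 2, and both groups were dissected on Day 7. Virgin mice had been housed with other females in place of a breeder male and were dissected at the same age. All females were later housed singly, and the pups removed and virgin mice were diestrous at collection. The comparison of maternal with virgin LS addresses what accompanies the maternal state. That of maternal with pups removed LS addresses continued contact with pups together with continued nursing, which the design cannot separate. These comparisons share the maternal arrays, and the 2 comparisons with virgin LS share the virgin arrays, so their values are set side by side and not counted as separate evidence.

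Astrocytes are glial cells that take up glutamate released at synapses and convert it to glutamine, buffer potassium and water at their endfeet on blood vessels, and form a network coupled by gap junctions. They store glycogen, supply lactate and lipoproteins to neurons, and respond to injury by raising intermediate filament genes such as Gfap. In hypothalamic nuclei of lactating rats astrocyte processes are known to withdraw from around oxytocin neurons. The arrays measured whole LS tissue, in which fewer astrocytes and less RNA per astrocyte cannot be told apart.

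Astrocyte genes as a group stood at closely similar levels in the 3 kinds of mice. Signals are on a log2 scale as deposited, where a difference of 1 is a doubling. The mean of the 34 genes per array was 10.624 ± 0.031 in maternal, 10.613 ± 0.021 in pups removed and 10.628 ± 0.062 in virgin LS (SD, n = 6 each). The lowest and the highest array were both virgin, at 10.529 and 10.7. The markers taken to define the cell type (Gfap, Aldh1l1, Aqp4, Slc1a2, Slc1a3 and Gja1) had group means from 8.74 (Aldh1l1, virgin LS) to 12.77 (Slc1a2, virgin LS). An array gives a value for every target, so these levels are a description. Single values of the 34 genes ran from 8.18 in Plcd4 to 13.65 in Mt2, and the array medians over all targets lay between 7.61 and 7.70.

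In maternal relative to virgin LS, 18 of the 34 genes averaged higher and 16 lower, with a median difference of 0.004. The median was 0.012 over all targets and 0 over the 19938 genes read from their brightest own target. In 27 genes the difference was under 0.1 in either direction, and in 30 the 95% interval of the difference lay within 0.25 of 0. By limma, with the p adjusted over all targets and a threshold of 0.25, 1 gene passed, Phyhd1, and it rose. The share of all targets that passed was 1.65%. At an unadjusted p under 0.05, 2 genes were higher (Phyhd1 and Gjb6, where 5.8% of all targets were) and 2 lower (Apoe and Gli3, where 4.62% were), 11.8% of the list against 10.4% of all targets. Phyhd1 was also the 1 gene whose maternal arrays lay wholly above the virgin arrays, as they did for 0.284% of all targets.

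In maternal relative to pups removed LS, 18 genes averaged higher and 16 lower, with a median of 0.008 (-0.003 over all targets, -0.005 over the 19938 genes). Phyhd1 was again the gene that passed, where 0.0309% of all targets did. This share depends on the targets fitted. With only the 21789 targets that name exactly 1 gene, 309 passed, 4 of the 34 genes among them. The unadjusted p was under 0.05 for 10 genes, 7 higher (3.33% of all targets) and 3 lower (5.63%), which is 29.4% of the list against 8.96% of all targets. The 7 were Phyhd1, Gjb6, Aldoc, Ndrg2, Fgfr3, Htra1 and Glul, and the 3 were Apoe, Gli3 and Aqp4. Maternal values lay wholly above those of pups removed mice for 3 of the 34 genes (Phyhd1, Aldoc and Ndrg2), as they did for 0.172% of all targets. The spread between arrays of a group was somewhat smaller for the 34 genes than elsewhere, with a median SD of 0.081 against 0.093 over the 19938 genes. These sets were not matched for brightness.

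In pups removed relative to virgin LS, 10 genes averaged higher and 24 lower, with a median of -0.017 (0.012 over all targets, 0.003 over the 19938 genes). None of the 34 passed in limma (0.208% of all targets did), and 2 had an unadjusted p under 0.05, Aldoc and Ndrg2, both lower (1.99% of all targets were), or 5.88% of the list against 8.13% of all targets in either direction. No gene separated the groups without overlap (0.38% of all targets). All but 2 of the intervals, 32 of 34, lay within 0.25 of 0.

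**Figure D1:**
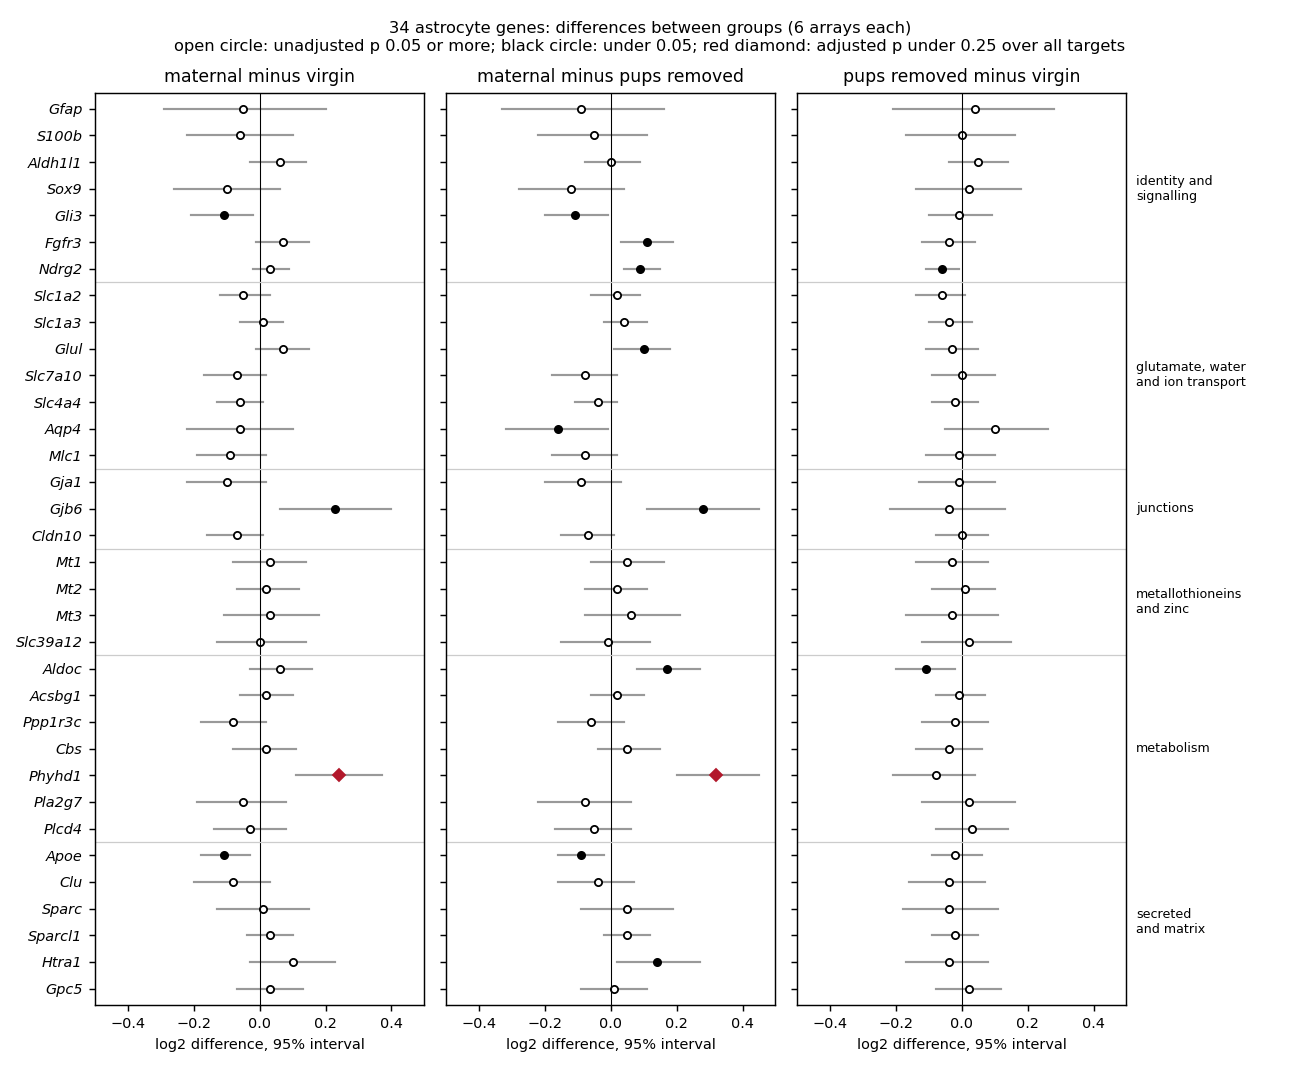
Differences in log2 signal (x axis) for each of the 34 astrocyte genes (rows, by role), with the 95% interval of the limma fit as a line, in maternal minus virgin, maternal minus pups removed and pups removed minus virgin LS. Red diamonds mark the adjusted p under 0.25, which Phyhd1 alone reached at 0.24 and 0.32, and filled circles an unadjusted p under 0.05.

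Phyhd1, which encodes an oxygenase of the phytanoyl-CoA dioxygenase family, rose in maternal LS. The paper lists it in both maternal comparisons of these same arrays, so its calls here are not separate evidence. Its log2 signal had a lowest, median and highest value of 8.83, 8.98 and 9.07 in maternal, 8.42, 8.66 and 8.82 in pups removed and 8.62, 8.76 and 8.82 in virgin LS. All 6 maternal arrays lay above every array of the other groups, while those of pups removed and virgin mice overlapped. The difference was 0.24 relative to virgin LS (standard error, SE, 0.06, 1.18-fold, limma adjusted p = 0.185) and 0.32 relative to pups removed LS (SE 0.06, 1.25-fold, limma adjusted p = 0.197). Between pups removed and virgin LS it was -0.08 (SE 0.06, limma adjusted p = 0.77). Both calls sat near the threshold: the adjusted p ran from 0.118 to 0.365 against virgin LS and from 0.0815 to 0.356 against pups removed LS over the alternatives tried. Without virgin replicate 2 or 3 or maternal replicate 2, 4, 5 or 6 the call against virgin LS was lost, and without virgin replicate 3, maternal replicate 2, 3, 4 or 6 or pups removed replicate 3 or 5 that against pups removed LS. The differences themselves ran from 0.22 to 0.27 and from 0.28 to 0.36 with 1 array left out. The call against pups removed LS was also lost with the replicate number as a block (limma adjusted p = 0.296) and in the fit of those 2 groups alone (limma adjusted p = 0.28).

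Gjb6 encodes connexin 30, a gap junction protein that couples astrocytes with one another. Its log2 signal had a lowest, median and highest value of 9.05, 9.16 and 9.32 in maternal, 8.53, 8.93 and 9.15 in pups removed and 8.81, 8.94 and 9.11 in virgin LS. Of the 6 maternal arrays, 4 exceeded all virgin arrays and 3 exceeded all pups removed arrays, and pups removed replicate 5 was the lowest of all. The differences, 0.23 relative to virgin (SE 0.08, 1.18-fold, limma adjusted p = 0.312) and 0.28 relative to pups removed LS (SE 0.08, 1.21-fold, limma adjusted p = 0.338), did not pass. Gja1, connexin 43, the other main gap junction protein of astrocytes, differed by -0.10 and -0.09 (SE 0.05 each, limma adjusted p = 0.546 and 0.671). Cldn10, a claudin of tight junctions, differed by -0.07 in both (SE 0.04 each), and its second, dimmer target by -0.06 and -0.07. Of these 3 junction genes, connexin 30 was the one with positive differences. Over 14 further connexins and pannexins with a target of their own, of 18 listed, 9 averaged higher and 4 lower in maternal relative to virgin LS and 10 higher and 4 lower relative to pups removed LS. Over the 19938 genes, 9956 averaged higher and 9929 lower relative to virgin LS, and 9331 and 10511 relative to pups removed LS. None of the 14 passed in any comparison, and 1 had an unadjusted p under 0.05 in maternal against virgin LS (Panx1, -0.11, SE 0.05, limma adjusted p = 0.442).

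Aldoc, aldolase C, is a glycolytic enzyme widely used as an astrocyte marker. Its log2 signal had a lowest, median and highest value of 12.51, 12.56 and 12.63 in maternal, 12.21, 12.43 and 12.47 in pups removed and 12.41, 12.53 and 12.57 in virgin LS. Maternal and pups removed arrays did not overlap, and the virgin arrays reached into both ranges. The difference between maternal and pups removed LS was 0.17 (SE 0.04, 1.13-fold, limma adjusted p = 0.287), that between maternal and virgin LS was 0.06 (SE 0.04, limma adjusted p = 0.643), and that between pups removed and virgin LS was -0.11 (SE 0.04, limma adjusted p = 0.522).

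The 250 bases before the transcription start are shown for the 3 genes with the largest positive differences from pups removed LS. They come from RefSeq, build GRCm38.p6, where 30 of the 34 genes matched, and each is written 5′ to 3′ on the strand of its gene. Where a gene has several starts, the most upstream was taken. Capitals mark matches on either strand to TTCNNNGAA (the gamma-activated site bound by STAT factors), AGAACA (a hexamer of the glucocorticoid receptor site) or CACGTG (the E-box).
Phyhd1, chr2:30265953-30266202, plus strand, most upstream of 3 starts: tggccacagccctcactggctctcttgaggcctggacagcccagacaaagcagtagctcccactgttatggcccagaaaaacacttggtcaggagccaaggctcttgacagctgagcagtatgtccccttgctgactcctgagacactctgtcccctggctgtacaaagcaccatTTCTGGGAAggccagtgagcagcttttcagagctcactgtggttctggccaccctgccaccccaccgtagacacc
Gjb6, chr14:57133612-57133861, minus strand: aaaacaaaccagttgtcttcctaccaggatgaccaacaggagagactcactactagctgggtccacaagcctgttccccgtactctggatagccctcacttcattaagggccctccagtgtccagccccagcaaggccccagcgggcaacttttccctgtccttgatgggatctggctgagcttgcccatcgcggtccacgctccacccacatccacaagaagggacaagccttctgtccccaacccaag
Aldoc, chr11:78322823-78323072, plus strand, most upstream of 2 starts: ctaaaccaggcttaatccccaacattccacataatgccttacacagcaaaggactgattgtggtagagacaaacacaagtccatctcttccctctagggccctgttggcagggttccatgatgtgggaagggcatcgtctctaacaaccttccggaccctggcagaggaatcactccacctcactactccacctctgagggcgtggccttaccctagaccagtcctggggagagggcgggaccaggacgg
Phyhd1 held 1 match, to TTCNNNGAA, whose first base lies 75 bases before the start, and the windows shown for Gjb6 and Aldoc held none, while the other start of Aldoc had a match to TTCNNNGAA. Of 41 windows at the starts of the 30 genes, 5 held TTCNNNGAA (12.2%, against 7.02% of 32851 mouse promoter windows of this length), 4 held AGAACA (9.76% against 16.1%) and 2 held CACGTG (4.88% against 6.02%). A match is a description of the letters and does not show that a factor binds there.

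**Figure D2:**
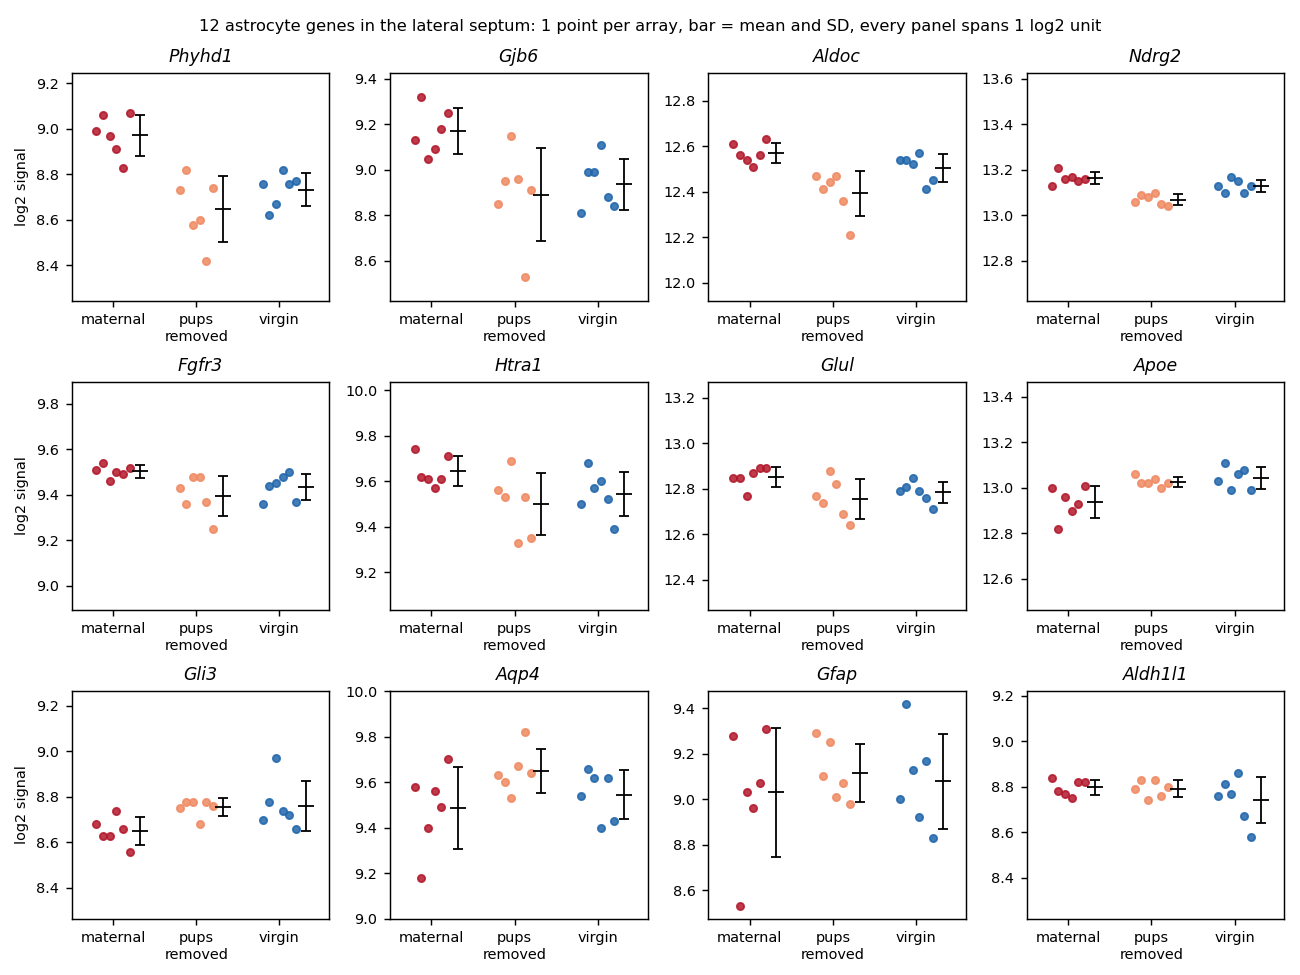
Log2 signal (y axis, each panel spanning 1 unit) of 12 astrocyte genes in maternal, pups removed and virgin LS, with 1 point per array and the mean and SD beside the points. Maternal points of Phyhd1 (8.83 to 9.07) lie above all others, and those of Gfap spread from 8.53 to 9.31.

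The markers most used to identify astrocytes differed little. Gfap, the intermediate filament of astrocytes, had a lowest, median and highest log2 signal of 8.53, 9.05 and 9.31 in maternal, 8.98, 9.09 and 9.29 in pups removed and 8.83, 9.07 and 9.42 in virgin LS. The groups overlapped throughout, and maternal replicate 2 was the lowest array. Its SD of 0.28, 0.13 and 0.21 in these groups was among the widest of the list, and the 95% interval of its difference reached from -0.29 to 0.20 against virgin and from -0.33 to 0.16 against pups removed LS. Aldh1l1, a folate enzyme found in nearly all astrocytes, had a lowest, median and highest signal of 8.75, 8.80 and 8.84 in maternal, 8.74, 8.80 and 8.83 in pups removed and 8.58, 8.77 and 8.86 in virgin LS. Its values overlapped in all groups, with intervals of the difference from -0.03 to 0.14 against virgin and from -0.08 to 0.09 against pups removed LS. S100b, a calcium-binding protein, and Sox9, a transcription factor of the glial lineage, differed from virgin LS by -0.06 (SE 0.08) and -0.10 (SE 0.08) in maternal mice.

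Among regulators of astrocytes, Gli3, a transcription factor of hedgehog signaling, had a lowest, median and highest signal of 8.56, 8.64 and 8.74 in maternal, 8.68, 8.77 and 8.78 in pups removed and 8.66, 8.73 and 8.97 in virgin LS. All 6 maternal arrays lay below the mean of either other group, 3 of them below all virgin arrays and 4 below all pups removed arrays, and the difference was -0.11 in both comparisons (SE 0.05 each, limma adjusted p = 0.402 and 0.527). Fgfr3, a fibroblast growth factor receptor of astrocytes, had a lowest, median and highest signal of 9.46, 9.50 and 9.54 in maternal, 9.25, 9.40 and 9.48 in pups removed and 9.36, 9.45 and 9.50 in virgin LS. Of the maternal arrays 5 lay above all pups removed arrays, and the difference of 0.11 did not pass (SE 0.04, limma adjusted p = 0.454). Ndrg2, a cytoplasmic protein abundant in astrocytes, had a lowest, median and highest signal of 13.13, 13.16 and 13.21 in maternal, 13.04, 13.07 and 13.10 in pups removed and 13.10, 13.13 and 13.17 in virgin LS. No pups removed array reached the maternal range, and 5 of them lay below all virgin arrays. The difference between maternal and pups removed LS was 0.09 (SE 0.03, 1.07-fold, limma adjusted p = 0.31), and that between pups removed and virgin LS was -0.06 (SE 0.03, limma adjusted p = 0.568).

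The glutamate transporters had group means close together. Slc1a2 and Slc1a3, the glutamate transporters GLT-1 and GLAST, differed by -0.05 (SE 0.04) and 0.01 (SE 0.03) in maternal relative to virgin LS and by 0.02 (SE 0.04) and 0.04 (SE 0.03) relative to pups removed LS. Glul, glutamine synthetase, which makes glutamine from glutamate, had a lowest, median and highest signal of 12.77, 12.86 and 12.89 in maternal, 12.64, 12.75 and 12.88 in pups removed and 12.71, 12.79 and 12.85 in virgin LS. The groups overlapped, and the difference was 0.10 relative to pups removed (SE 0.04, limma adjusted p = 0.504) and 0.07 relative to virgin mice (SE 0.04, limma adjusted p = 0.567). The Glul target used is numbered among targets of chromosome 11 (10 of its 10 nearest annotated neighbours), whereas the gene lies on chromosome 1. A second target, numbered among chromosome 1 targets, gave 12.20 in maternal, 12.10 in pups removed and 12.14 in virgin LS, with differences of 0.10 and 0.06 from pups removed and virgin LS. Slc7a10, a transporter of small neutral amino acids, differed from virgin LS by -0.07 (SE 0.05).

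In a list of 20 partners of the glutamate and glutamine cycle, 17 had a target of their own, and 1 passed in maternal against virgin LS (1.65% of all targets did). This was Slc38a3, the sodium-coupled glutamine transporter SNAT3 of astrocytes, which averaged 10.63 in maternal and 10.84 in virgin LS, a fall (log2 difference -0.21, SE 0.06, limma adjusted p = 0.244) that 17 of 26 alternatives did not keep past the threshold, the replicate block among them (limma adjusted p = 0.292). It averaged 10.90 in pups removed LS, and the maternal difference from it of -0.27 did not pass (SE 0.06, limma adjusted p = 0.278). Slc38a2, a related transporter found largely in neurons, differed by 0.17 relative to virgin mice (SE 0.07, limma adjusted p = 0.376).

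Aqp4, the water channel of astrocyte endfeet, had a lowest, median and highest signal of 9.18, 9.53 and 9.70 in maternal, 9.53, 9.64 and 9.82 in pups removed and 9.40, 9.58 and 9.66 in virgin LS. Of the maternal arrays 3 lay below all pups removed arrays, and replicate 2 was the lowest. The difference was -0.16 relative to pups removed (SE 0.07, limma adjusted p = 0.546) and -0.06 relative to virgin mice (SE 0.07, limma adjusted p = 0.828). With 1 array left out they ran from -0.21 to -0.10 and from -0.10 to 0.00, and were nearest to 0 without maternal replicate 2. Mlc1, a membrane protein of endfeet, and Slc4a4, a sodium bicarbonate cotransporter, differed from virgin LS by -0.09 (SE 0.05) and -0.06 (SE 0.03). In a list of 17 further genes of the endfoot complex, which anchors Aqp4 to the vascular basement membrane, 15 were measured and none passed. In maternal relative to pups removed LS 13 of the 15 averaged lower, with a median of -0.058, among them Utrn, utrophin, at -0.16 (SE 0.04, limma adjusted p = 0.319). Over the 19938 genes with a target of their own 10511 averaged lower, with a median of -0.005. Relative to virgin LS 10 of the 15 averaged lower and 4 higher, with a median of -0.027.

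The metallothioneins are small metal-binding proteins, of which zinc and glucocorticoids induce Mt1 and Mt2. The group means of all the metallothioneins in the list lay close together. Mt1 averaged 12.44 ± 0.11 in maternal, 12.39 ± 0.07 in pups removed and 12.41 ± 0.09 in virgin LS (SD, n = 6 each). Mt2 averaged 13.54 ± 0.06, 13.52 ± 0.11 and 13.51 ± 0.04 in these groups, and Mt3, the brain form, 11.41 ± 0.09, 11.34 ± 0.12 and 11.37 ± 0.14. The largest of their differences in any comparison was 0.06 (Mt3, maternal minus pups removed, SE 0.07). The zinc transporter Slc39a12 differed by 0.00 and -0.01 in maternal relative to virgin and pups removed LS (SE 0.06 each). Of 28 further genes of zinc and metal handling none passed in any comparison.

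The 250 bases before the starts of Mt1 and Mt2 are shown because these genes are known to respond to metals through elements close to the start. Capitals mark the core of the metal response element, TGCGCNC or TGCACNC, on either strand, and no matches overlapped.
Mt1, chr8:94178839-94179088, plus strand: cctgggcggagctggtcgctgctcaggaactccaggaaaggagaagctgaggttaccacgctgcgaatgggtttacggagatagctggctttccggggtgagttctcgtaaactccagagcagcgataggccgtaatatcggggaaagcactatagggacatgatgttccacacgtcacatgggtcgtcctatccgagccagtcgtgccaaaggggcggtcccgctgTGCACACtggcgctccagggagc
Mt2, chr8:94172368-94172617, plus strand: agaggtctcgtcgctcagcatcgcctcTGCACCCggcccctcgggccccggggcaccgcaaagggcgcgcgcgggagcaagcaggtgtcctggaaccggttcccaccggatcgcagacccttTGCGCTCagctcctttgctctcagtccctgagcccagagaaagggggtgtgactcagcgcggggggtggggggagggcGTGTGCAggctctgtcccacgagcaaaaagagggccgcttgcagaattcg
The window of Mt1 held 1 match, 23 bases before the annotated start, and that of Mt2 held 3, at 223, 128 and 50 bases before it. Bases outside these windows, including those after the annotated start, were not searched, so elements there are not counted. A match to either form was present in 7 of the 41 windows of the astrocyte genes (17.1%) and in 21.4% of all promoter windows.

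Other metabolic genes among the 34 did not pass. Acsbg1, an acyl-CoA synthetase for long fatty acids, differed by 0.02 in maternal relative to virgin and pups removed LS (SE 0.04 each). Ppp1r3c, a targeting subunit that directs a phosphatase to glycogen, differed by -0.08 and -0.06 (SE 0.05 each), and Cbs, cystathionine beta-synthase, by 0.02 and 0.05 (SE 0.05 each). Pla2g7, a phospholipase that cleaves platelet-activating factor, and Plcd4, a phospholipase C, differed from virgin LS by -0.05 (SE 0.07) and -0.03 (SE 0.05). In a list of 24 further genes of glycogen and lactate metabolism, 23 were measured and 1 passed in maternal against virgin LS (1.65% of all targets did). Ppp1ca, the catalytic subunit of protein phosphatase 1, averaged 10.51 in maternal and 10.73 in virgin LS, a fall (log2 difference -0.22, SE 0.06, limma adjusted p = 0.19) lost in 9 of 26 alternatives, the replicate block among them (limma adjusted p = 0.275). Slc16a1, the lactate transporter MCT1, averaged 8.65 in maternal and 9.03 in pups removed LS, a difference of -0.38 that did not pass (SE 0.09, limma adjusted p = 0.287).

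Among secreted proteins, Apoe, the main lipoprotein component that astrocytes release, had a lowest, median and highest signal of 12.82, 12.95 and 13.01 in maternal, 13.00, 13.02 and 13.06 in pups removed and 12.99, 13.04 and 13.11 in virgin LS. Of the 6 maternal arrays, 4 lay below every array of either other group. The differences of -0.11 from virgin (SE 0.03, 0.93-fold, limma adjusted p = 0.282) and -0.09 from pups removed LS (SE 0.03, 0.94-fold, limma adjusted p = 0.48) did not pass. Clu, clusterin, another apolipoprotein, differed by -0.08 and -0.04 (SE 0.05 each). In a list of 16 further genes of lipoprotein handling, 14 were measured, and 3 fell in maternal relative to virgin LS, where 1.65% of all targets passed, while none rose. They were Lpl, lipoprotein lipase (-0.58, SE 0.14, limma adjusted p = 0.165), Pltp, the phospholipid transfer protein (-0.39, SE 0.12, limma adjusted p = 0.238), and Sort1, the sorting receptor sortilin (-0.13, SE 0.04, limma adjusted p = 0.238). All 6 maternal arrays lay below the virgin mean for each of them, and the calls were lost in 4, 13 and 15 of 26 alternatives. The replicate block ended those of Pltp and Sort1 (limma adjusted p = 0.358 and 0.311). None of the 14 passed against pups removed LS, where the 3 genes differed by -0.44, -0.43 and -0.11. The paper already lists Lpl among its most significant genes from these arrays, and the list was chosen with earlier results known. The share of calls in this list is thus a description.

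Htra1, a secreted serine protease, had a lowest, median and highest signal of 9.57, 9.61 and 9.74 in maternal, 9.33, 9.53 and 9.69 in pups removed and 9.39, 9.54 and 9.68 in virgin LS. The ranges overlapped, and the difference was 0.14 relative to pups removed (SE 0.06, limma adjusted p = 0.504) and 0.10 relative to virgin mice (SE 0.06, limma adjusted p = 0.577). The matrix proteins Sparc and Sparcl1 (hevin), which act on synapse formation, differed from virgin LS by 0.01 (SE 0.07) and 0.03 (SE 0.03). Gpc5, a heparan sulfate proteoglycan, differed by 0.03 (SE 0.05).

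The 34 genes varied together across arrays more than genes did in general, as a description. After removal of the group means, the mean correlation between pairs of them over the 18 arrays was 0.186, against 0.018 over the 19938 genes. All genes of an array share its RNA, tissue piece and hybridization, and the 34 were not compared with genes of similar brightness. Deviations of single arrays from a gene's mean ran from -0.55 to 0.34, and 2 values lay more than 0.4 below it. These were Gfap in maternal replicate 2 (8.53) and Gjb6 in pups removed replicate 5 (8.53). Maternal replicate 2 was also the lowest array for Aqp4 and the highest for Gjb6.

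**Figure D3:**
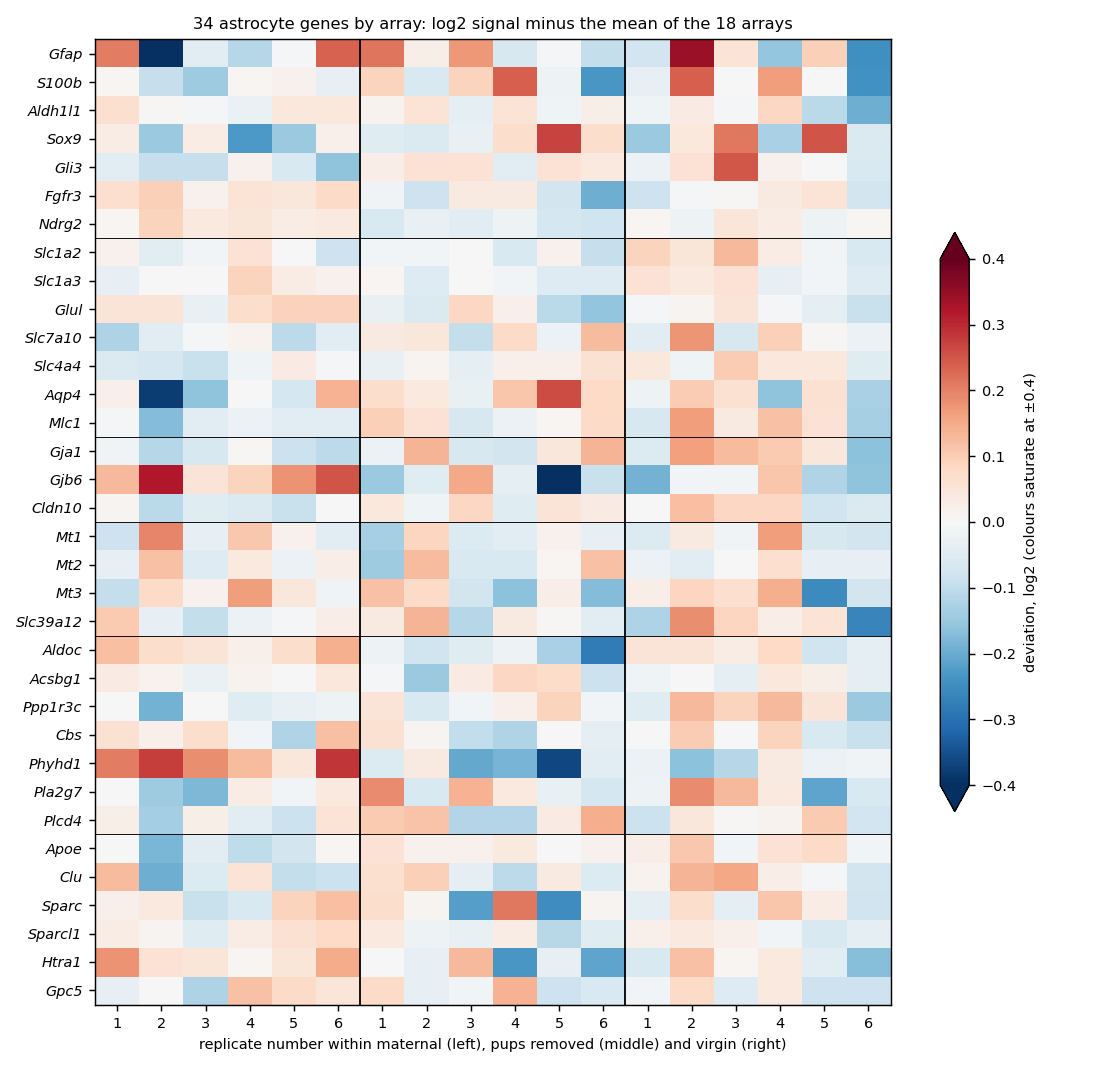
Deviation of log2 signal (colour) from the mean of the 18 arrays for each astrocyte gene (rows, by role) and array (columns, maternal left, pups removed middle, virgin right). Phyhd1 is red in the maternal block, and most rows show no block of colour by group. Deviations run from -0.55 to 0.34.

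Further genes known to be high in astrocytes, but outside the 34, included 6 that passed. The paper had already listed Fam107a, Fabp7, Grm3 and Mertk from these arrays, so the count is a description. Of 72 listed, 69 had a target of their own. In maternal relative to virgin LS 26 averaged higher and 42 lower, with a median of -0.040 (0.012 over all targets, 0 over the 19938 genes). Of the 69, 3 passed higher and 3 lower, against 0.832% and 0.813% of all targets. Fam107a, an actin-regulating protein, averaged 11.62 in maternal, 11.29 in pups removed and 11.40 in virgin LS. It rose by 0.22 relative to virgin (SE 0.04, limma adjusted p = 0.111) and by 0.33 relative to pups removed LS (SE 0.04, limma adjusted p = 0.000923). The call against pups removed LS was kept in all 26 alternatives, with a limma adjusted p of at most 0.0285, and that against virgin LS was lost without maternal replicate 5 (limma adjusted p = 0.251). Etnppl, an ethanolamine-phosphate phospholyase, averaged 9.11 in maternal, 8.14 in pups removed and 8.32 in virgin LS, and rose by 0.79 relative to virgin mice (SE 0.22, limma adjusted p = 0.213). Its difference from pups removed LS was 0.97 (SE 0.22, limma adjusted p = 0.278). Mertk, a receptor used in phagocytosis by astrocytes and microglia, rose by 0.30 relative to virgin mice (SE 0.08, limma adjusted p = 0.185). Fabp7, the brain fatty acid binding protein, found in radial glia and astrocytes, averaged 11.84 in maternal, 12.35 in pups removed and 12.32 in virgin LS, and fell by 0.48 relative to virgin mice (SE 0.10, limma adjusted p = 0.124). Grm3, a metabotropic glutamate receptor, fell by 0.18 (SE 0.05, limma adjusted p = 0.198), and Slc38a3 is the remaining gene. Of 26 alternatives, 8 ended the call of Etnppl, 6 that of Mertk, 1 that of Fabp7 and 7 that of Grm3, and the replicate block ended that of Etnppl (limma adjusted p = 0.25). In maternal relative to pups removed LS 21 of the 69 averaged higher and 48 lower (median -0.042, -0.005 over the 19938 genes). At an unadjusted p under 0.05, 5 were higher and 17 lower (3.33% and 5.63% of all targets). Relative to virgin LS 3 were higher and 14 lower at that p (5.8% and 4.62% of all targets). Of the 69, 1 passed against pups removed LS, Fam107a (0.0309% of all targets passed), and in pups removed relative to virgin LS none did (0.208%). Fabp7 differed from pups removed LS by -0.51 (SE 0.10, limma adjusted p = 0.265) and Mertk by 0.32, neither passing in this fit. The paper's own fit of these arrays, at the same threshold, lists both genes against pups removed mice. Its quantitative PCR also found Fabp7 lower in maternal mice than in either other group.

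Reactive astrocyte genes, which injury and inflammation raise, did not pass in this fit in any comparison. Of 34 listed 31 were measured, with a median difference of -0.010 in maternal relative to virgin and -0.020 relative to pups removed LS. Vim, vimentin, an intermediate filament induced with Gfap, averaged 10.66 in maternal and 10.90 in pups removed LS (difference -0.24, SE 0.08, limma adjusted p = 0.421). Fbln5, a matrix protein, averaged 8.34 in maternal, 8.06 in pups removed and 8.14 in virgin LS (limma adjusted p = 0.278 against pups removed and 0.267 against virgin LS). The paper's own fit of these arrays, at the same threshold, lists Fbln5 as higher in both maternal comparisons.

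**Figure D4:**
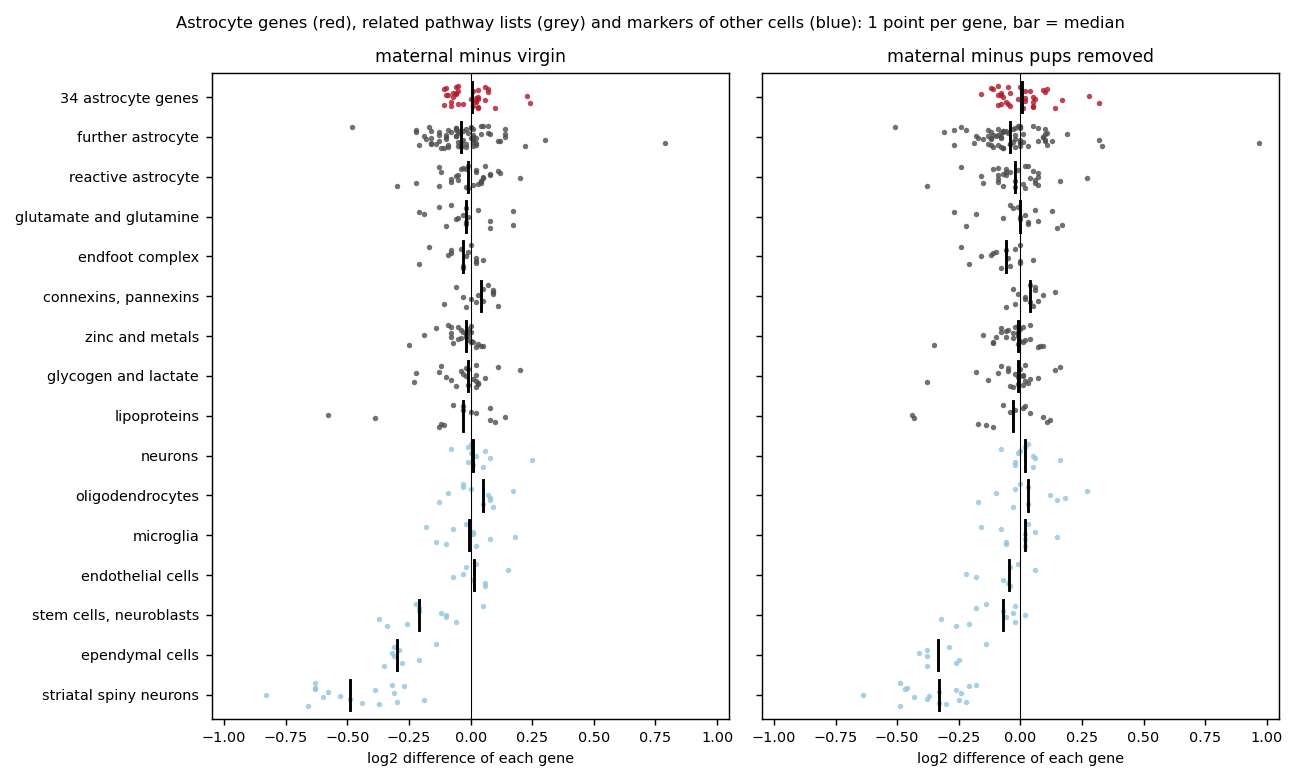
Log2 difference (x axis) of each measured gene in the astrocyte list (red), related pathway lists (grey) and marker lists of other cells (blue), with the list median as a bar, in maternal minus virgin and maternal minus pups removed LS. The median of the 34 astrocyte genes is 0.004 and 0.008, and that of the striatal neuron list is -0.487 and -0.330.

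Markers of some other cells differed between the groups, beside 1.65% of all targets that passed in maternal against virgin LS. The lists were chosen with earlier results known. Of the markers that passed, the paper had already listed Bcl11b, Rarb, Rxrg, Egfr, Nr2e1 and P2ry12 from these arrays. The counts of calls are thus a description. Of 19 markers of striatal medium spiny neurons, which lie beside the LS, 17 were measured and all 17 averaged lower in maternal than in virgin LS, 6 passing, with a mean over the list of 9.54 (9.13 to 9.76) in maternal, 9.90 (9.34 to 10.29) in pups removed and 10.02 (9.87 to 10.13) in virgin LS. All 8 ependymal markers averaged lower in maternal LS with none passing, the list mean being 8.13 (7.88 to 8.46) in maternal, 8.44 (8.0 to 8.68) in pups removed and 8.40 (8.13 to 8.66) in virgin LS. Of 11 stem cell and neuroblast markers 10 averaged lower and 4 passed, with 8.78 (8.69 to 8.88), 8.90 (8.75 to 8.98) and 8.96 (8.89 to 9.03) in the same groups. All 6 choroid plexus markers averaged lower with wide, overlapping ranges, 8.65 (7.82 to 9.80), 9.21 (7.66 to 10.20) and 9.43 (7.87 to 10.27). Neuron markers stood at 11.36, 11.34 and 11.33 and oligodendrocyte markers at 10.27, 10.23 and 10.25 in maternal, pups removed and virgin LS, with none passing in either list. Of 10 microglial markers 2 fell and of 8 endothelial markers 1 rose in maternal relative to virgin LS. Of 5 blood markers 2 were measured, and their mean did not overlap between maternal and pups removed LS, at 7.52 (7.46 to 7.71) in maternal, 7.24 (7.14 to 7.38) in pups removed and 7.42 (7.25 to 7.51) in virgin LS. Alas2, the heme synthesis enzyme of red cells, was the further apart of the 2 (0.36 relative to pups removed LS, SE 0.07, unadjusted p = 0.000137, limma adjusted p = 0.275). Of 8 mural and meningeal markers none passed, and 5 averaged lower relative to virgin and 6 relative to pups removed LS, with means of 8.22, 8.31 and 8.28 in maternal, pups removed and virgin LS. The part of these cells in the differences of Phyhd1, Apoe and the other astrocyte genes was not tested.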

How the data were processed

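Total RNA from microdissected LS of 18 mice was labeled with the Ambion GeneChip WT Expression Kit and hybridized to Affymetrix Mouse Gene 1.0 ST arrays, 6 per group. The authors summarized probe signals per target with PLIER and a background correction by GC bin in Affymetrix Power Tools 1.12.0 and deposited log2 values, which were used as they are. Their methods place the normalization in this same step and do not say which form between arrays it took. Groups were taken from the sample titles. Genes were named from the platform annotation, in which 21789 targets name exactly 1 gene, 1621 several and 12147 none. A model with 3 groups was fitted to all 35557 targets with limma 3.58.1 in R 4.3.3 (lmFit and eBayes, prior degrees of freedom 2.62), with Benjamini-Hochberg adjustment over all targets and a threshold of 0.25. At this threshold 585 targets passed in maternal against virgin and 11 in maternal against pups removed LS. These are fewer than the paper reports from the same arrays, so genes it lists can fall short here. A 95% interval is that of the fitted difference, and the SD of a group is taken over its 6 arrays. The median SDs of 0.081 and 0.093 are instead medians of the within-group SD pooled over the 18 arrays.

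The members and lists were chosen with earlier results of these data known. The rule for names took all 34 members and up to 4 genes of each list with the smallest p in a comparison, of which the text prints those a result turns on. Values are given in full for members with an unadjusted p under 0.05 in any comparison and for Gfap, Aldh1l1 and Aqp4. Array values have no read depth, and precision rests on the 6 arrays of each group. Correlations between arrays of 1 group ran from 0.9906 to 0.9947, and none were identical. Other settings tried were a block for the replicate number, quantile normalization, median centring, a filter on targets with a mean under 7, a variance prior with intensity trend, array weights, the 2 groups compared alone, targets naming exactly 1 gene, the dimmer target of a gene, a threshold of 0.05, and each array left out. Promoter sequences are from RefSeq.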

Additional observations from a re-analysis of the deposited data

Results flagged for a closer look

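Of 102 sets of 6 arrays (34 genes in 3 groups), 5 held an array that stood apart from the rest by Dixon's criterion, which compares the gap to the nearest array with the whole range and flags about 1 in 20 sets by chance. Mlc1 in maternal replicate 2 was 10.30, below the other maternal arrays at 10.43 to 10.47. Ppp1r3c on the same array was 8.75, below 8.89 to 8.94. Glul in maternal replicate 3 was 12.77, below 12.85 to 12.89. Gli3 in pups removed replicate 4 was 8.68, below 8.75 to 8.78. Mt2 in virgin replicate 4 was 13.59, above 13.48 to 13.52.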

How the results depend on the processing

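At an adjusted p of 0.05 no astrocyte gene passed in limma in any comparison, and over all targets 0 passed in maternal against virgin, 5 in maternal against pups removed and 7 in pups removed against virgin LS (4, 10 and 2 of the 34 genes had an unadjusted p under 0.05). Of 102 gene differences, 24 turned sign under some alternative, and their size was at most 0.09. Apart from leaving out 1 array, the alternatives gave 822 values, of which 2 lost a call and 13 gained one. Both losses were of Phyhd1 against pups removed LS (limma adjusted p = 0.296 with the replicate block and 0.28 in the fit of those 2 groups alone). The arrays give no read depth, so the limit is their number: for 30, 27 and 32 of the 34 genes the 95% interval lay within 0.25 of 0 in the 3 comparisons. The causes of these shifts were not tested.

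The labels number replicates alike in each group, and the methods describe extraction in matched triplets, but no label ties a number to a triplet. Deviations of same-numbered arrays correlated from -0.248 to 0.095, and 0 of 18 pairs exceeded 0.1. With the replicate block, 1 astrocyte gene passed in maternal against virgin LS with 356 of all targets, and 0 in maternal against pups removed LS.

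Counts of astrocyte genes called, 1 in each maternal comparison, moved as follows. In maternal against virgin LS the count was 3 without dim targets (1130 over all targets), 2 with the intensity trend and 2 with 2 groups alone. In maternal against pups removed LS it was 3 without dim targets (204 over all targets), 2 with the intensity trend (30), 4 with array weights (783), 0 with 2 groups alone and 4 with targets of exactly 1 gene (309), and over all targets 42 passed after quantile normalization and 7 after centring. The genes gained were Gjb6, Apoe, Aldoc and Ndrg2. In pups removed against virgin LS no astrocyte gene passed in limma in any alternative, and over all targets 42 passed with array weights, 33 with 2 groups alone and 7 with targets of exactly 1 gene. With 1 array left out, 0 to 4 astrocyte genes passed in maternal against virgin LS (10 to 1639 targets), 0 to 4 in maternal against pups removed LS (5 to 719) and 0 in pups removed against virgin LS (18 to 266). The highest counts came without virgin replicate 6, pups removed replicate 4 and virgin replicate 4 in the 3 comparisons, in that order.

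Signs turned as follows with all arrays. After quantile normalization Slc1a3 was -0.01 in maternal against virgin LS, Slc39a12 0.01 in maternal against pups removed LS and Mt2 -0.02 in pups removed against virgin LS. After centring Slc1a3 was -0.01 in maternal against virgin LS, and in pups removed against virgin LS Sox9, Pla2g7 and Gpc5 were -0.01 and Mt2 and Slc39a12 -0.02. With array weights Gli3, Mlc1 and Mt3 were 0.01 and Gja1 0.02 in pups removed against virgin LS. With 1 array left out, differences in maternal against virgin LS ran for Gfap from -0.10 to 0.05, Slc1a3 from -0.01 to 0.02, Mt1 from -0.01 to 0.06, Mt3 from -0.02 to 0.06 and Sparc from -0.01 to 0.03. In maternal against pups removed LS they ran for Gfap from -0.14 to 0.01, Mt2 from -0.01 to 0.04, Slc39a12 from -0.04 to 0.01, Acsbg1 from -0.01 to 0.04 and Gpc5 from -0.01 to 0.04. In pups removed against virgin LS they ran for Gfap from -0.01 to 0.11, Sox9 from -0.03 to 0.06, Gli3 from -0.03 to 0.03, Mlc1 from -0.04 to 0.02, Gja1 from -0.05 to 0.01, Gjb6 from -0.10 to 0.03, Mt1 from -0.05 to 0.01, Mt2 from -0.02 to 0.04, Slc39a12 from -0.04 to 0.05, Acsbg1 from -0.02 to 0.02, Pla2g7 from -0.02 to 0.06 and Sparc from -0.08 to 0.01.

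For the 10 genes of the pathway lists that passed, the same alternatives were chosen after seeing the data. None of their 11 called differences turned sign. The markers of other cells that passed were not refitted in this way.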
